A study of Homo sapiens with 24 samples.

Results

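Gene expression was compared on day 4 between MV4-11 cells grown with 3 uM EPZ004777 and MV4-11 cells grown with the vehicle, 0.1% DMSO, with 3 arrays in each group. These 6 arrays were taken by the titles of the samples from a series of 24, and 12 further MV4-11 arrays serve here as a frame, namely 6 treated and 6 vehicle arrays of days 2 and 6. MV4-11 is an established human leukemia line, labelled biphenotypic B myelomonocytic, with the MLL-AF4 rearrangement, and all its cultures were kept in IMDM medium with serum. EPZ004777 is a small molecule that inhibits DOT1L. Every group compared here was made from this 1 line, the vehicle cultures carry the fusion as well, and each array holds RNA of 1 biological replicate. The rest of the series is MOLM-13 cells of day 6, treated with EPZ004777 or vehicle. Those arrays enter the shared fit, with its estimate of spread, and the choice of genes and probe sets, but no comparison. The labels do not say how replicates were separated, or whether the days were sampled from the same cultures, so the p-values measure the spread between these cultures. The rule for this comparison also asks that genes be marked where the day 4 vehicle arrays alone stood high or low beside the vehicle arrays of days 2 and 6.

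DOT1L places methyl groups on lysine 79 of histone H3 along transcribed genes. In leukemias with a rearranged MLL gene, the fusion protein recruits DOT1L to its target genes and holds them active. Loss of that activity in such cells is known to lower fusion targets and to be followed by differentiation along the myeloid line and slower growth.

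Levels are log2 of the deposited intensity of 1 probe set per gene, and changes are log2 differences with the standard error of limma's model, which was fitted over all 24 arrays. A gene was called where its p-value after Benjamini-Hochberg adjustment across the 10963 tested genes was under 0.05. The lowest value of the arrays was 2.19, shared by all of them, and where a group stands there the size of its change is set by the background adjustment. Equal values above it in all arrays of a group, as for MX1 below, may be set in the same way. The arrays of each MV4-11 group correlated with one another at 0.989 or above. The difference between 3′ and 5′ control probe sets of ACTB and GAPDH, a sign of RNA quality, ran from 0.59 to 0.67 in the treated arrays of day 4 and from 0.70 to 0.82 in their vehicle arrays. In the vehicle arrays of the other days it ran from 0.57 to 0.68, so the day 4 vehicle arrays stood above all of these. One treated MV4-11 array of day 6, replicate 3, stood apart at 1.91. The MOLM-13 arrays, which share the fit, ran from 0.95 to 2.84. Myeloid genes such as LYZ, a lysozyme, and CEBPA, a granulocyte transcription factor, were well above the lowest value, while the monocyte receptor CD14 was at it in every day 4 array, as was CD3D, a chain of the T cell receptor complex. Of the B-lymphoid genes, the surrogate light chain IGLL1 was clearly measured, and CD79B and IGHM lay near 5 and 4.

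On day 4, 5067 of 10963 genes were called (46.2%), with 2763 higher in treated cells (25.2%) and 2304 lower (21%). At least 2-fold higher were 463 of them (4.22%), and 305 were at least 2-fold lower (2.78%). The treated and vehicle arrays did not overlap in 6481 genes (59.1%). With only the arrays of this comparison in the fit, 2843 genes were higher and 2397 lower. A gene was marked high where the day 4 vehicle arrays differed from the mean of the day 2 and day 6 vehicle arrays in limma's test and all 3 lay above all 6, and marked low in the opposite case. There were 1087 genes marked high (9.92%) and 1298 marked low (11.8%). Without replicate 3 of the day 4 vehicle arrays 842 were marked low. The mark and the treatment comparison share the 3 vehicle arrays of day 4, so a gene marked high is by construction moved toward a lower treated minus vehicle value.

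Among the genes marked high, 521 were lower in treated cells, 228 were higher and 338 were not called. Those 521 had a median change of -0.66 against the day 4 vehicle arrays and of -0.14 against the vehicle arrays of days 2 and 6. In 216 of the 521 the treated mean lay inside the range of those 6 other vehicle arrays, and in 251 it lay below that range. Among the genes marked low, 294 were higher in treated cells, 324 were lower and 680 were not called. The unmarked genes numbered 8578, of which 2241 were higher and 1459 lower. Set against the vehicle arrays of days 2 and 6, a comparison in which treatment and day of culture both differ, the treated arrays of day 4 were higher in 3189 genes (29.1%) and lower in 3072 (28%), together 6261 genes (57.1%). Among the unmarked genes higher on day 4, 2003 of 2241 were also called higher there, and 1254 of the 1459 lower genes were also called lower. Both comparisons use the same treated arrays, and unmarked genes are those whose vehicle arrays the rule did not set apart. Much of this overlap is thus fixed by construction.

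**Figure D1:**
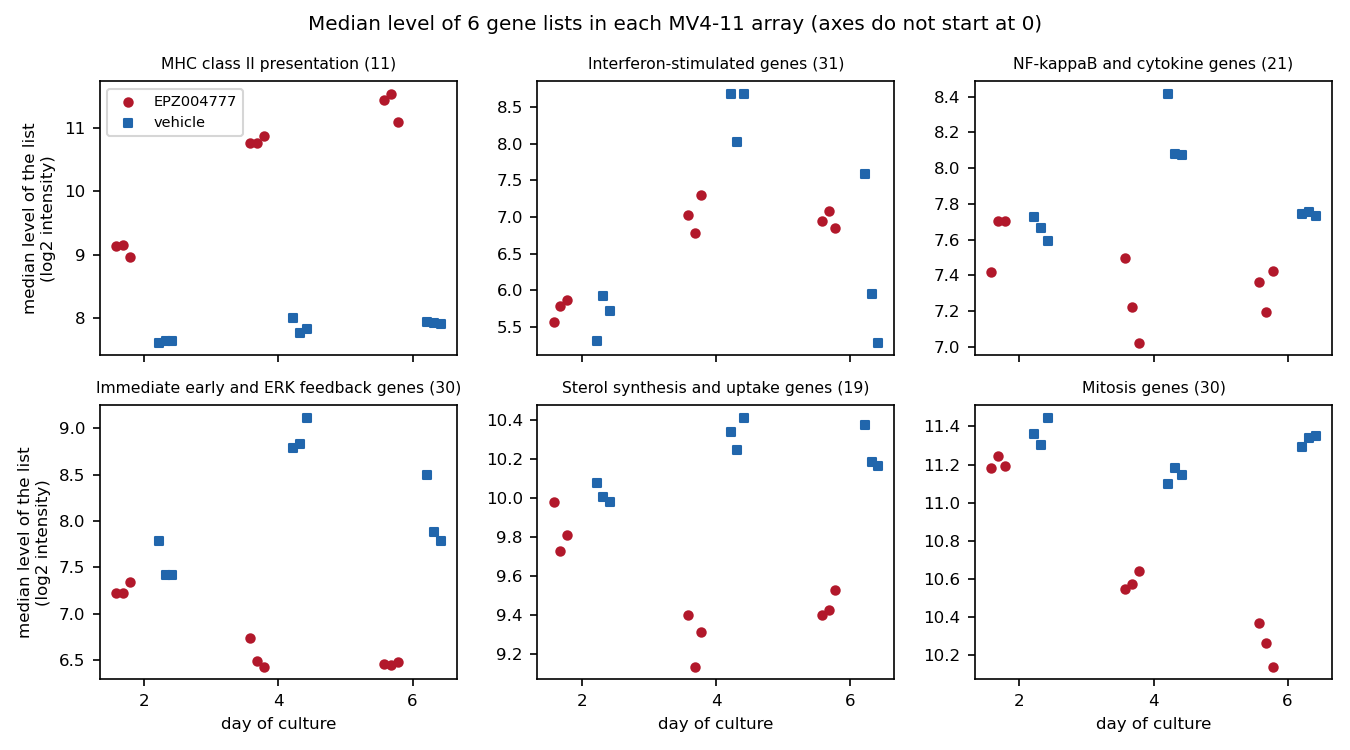
Median level of 6 gene lists (log2 intensity, number of genes in brackets) in each MV4-11 array by day of culture, with EPZ004777 arrays (circles) left of vehicle arrays (squares). The interferon-stimulated list stood at 8.02 to 8.68 in the day 4 vehicle arrays and at 6.78 to 7.29 in the treated arrays of that day, while the MHC class II list stood at 10.77 to 10.88 in treated arrays, each above all vehicle arrays.

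Genes of antigen presentation through MHC class II had the largest median rise of the gene lists described here. MHC class II molecules display peptides from the endosome to helper T cells, and their genes are switched on together by the coactivator CIITA, which docks on RFX and NF-Y proteins bound to their promoters. All 11 tested members of this list rose, with a median of 3.00 (0.01 over all genes tested), and 0 of the 11 were marked. Against the vehicle arrays of days 2 and 6 all 11 were again higher, with a median of 2.96. The promoters of HLA-DQB1, the beta chain of an MHC class II molecule, and HLA-DMA, a chain of the molecule that loads peptide, are shown because they hold the Y box core CTGATTGG, in capitals, to which NF-Y is known to bind. Each is 200 bases of RefSeq sequence (GRCh38.p14) from 180 before the start site to 20 from it onward, read on the minus strand at chr6:32666638-32666837 and chr6:32953078-32953277.
HLA-DQB1: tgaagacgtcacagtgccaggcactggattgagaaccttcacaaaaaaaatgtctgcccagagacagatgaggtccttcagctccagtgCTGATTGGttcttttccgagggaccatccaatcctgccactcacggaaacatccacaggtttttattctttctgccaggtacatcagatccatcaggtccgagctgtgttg
HLA-DMA: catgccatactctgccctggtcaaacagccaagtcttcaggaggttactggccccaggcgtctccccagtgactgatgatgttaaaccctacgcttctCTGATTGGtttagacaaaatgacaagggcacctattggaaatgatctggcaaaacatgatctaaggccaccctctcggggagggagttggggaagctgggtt
The core, searched on both strands in 300 bases around the start site, was in 4 of 8 list promoters (50%). Its share was 4.16% of all 27305 promoters in the table and 5.5% of those of genes tested. Its letters include an inverted CCAAT box, which many promoters without MHC genes also carry, and a match is only a match of letters. The 4 genes with the core had a median change of 2.91 and the 4 without it one of 3.29, so its presence did not set the larger rises apart.

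HLA-DQB1 stood at 9.72, 9.54 and 9.76 in treated arrays, against 5.99, 6.18 and 5.92 in vehicle arrays, a change of 3.64 ± 0.18 (limma, adjusted p = 2.96e-12). HLA-DMA stood at 10.77, 10.77 and 10.88 in treated arrays and at 8.14, 7.88 and 7.93 in vehicle arrays, a change of 2.82 ± 0.14. In both genes every treated array lay far above every vehicle array. CIITA itself stood at 8.22, 8.37 and 8.19 in treated arrays, against 5.17, 5.07 and 5.14 in vehicle arrays. It rose by 3.14 ± 0.19 (limma, adjusted p = 6.21e-11), and its partner RFX5, a DNA-binding subunit of RFX, rose by 0.83 ± 0.08. The treated arrays of both were above all vehicle arrays of the 3 days.

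The chains that make up the surface molecules rose as well. HLA-DPB1 had levels of 10.20, 10.39 and 10.35 in treated arrays and 5.35, 5.04 and 5.32 in vehicle arrays, and HLA-DPA1, its alpha chain partner, had 12.41, 12.22 and 12.30 against 7.96, 7.66 and 7.76. Neither gene overlapped between the groups. HLA-DRB1 changed by 3.00 ± 0.25, but this gene and its near copies can share probes, so that value may belong to several of them. CD74, the invariant chain that blocks the groove until loading, rose by 2.06 ± 0.09. CTSS, the protease that trims CD74, rose by 1.04 ± 0.11, and HLA-DMB, the second chain of the loading molecule, rose by 1.64 ± 0.32, with 1 treated array at 7.48 and the other 2 at 6.35 and 6.28. The genes of MHC class I presentation, which shows peptides of the cell interior to killer T cells, moved much less. Of 13 tested members 11 rose and 0 fell, with a median of 0.31, and 2 were marked high. HLA-F changed by 0.54 ± 0.09, HLA-C by 0.46 ± 0.07 and PSMB9, a subunit of the immunoproteasome, by 0.44 ± 0.09, and the HLA genes among them can also share probes. TAP1, a chain of the peptide pump, was marked high and stood at 8.44, 8.73 and 8.73 in treated arrays, against 8.74, 8.55 and 8.58 in vehicle arrays, an overlap of the groups.

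Outside antigen presentation, large unmarked rises were found in genes of different roles, and those named here were called with either set of vehicle arrays. IGF1, the insulin-like growth factor, stood at 12.08, 12.03 and 12.06 in treated arrays, against 8.19, 7.83 and 7.72 in vehicle arrays, a change of 4.14 ± 0.11 (limma, adjusted p = 3.13e-16). CD84, an adhesion receptor of leukocytes, stood at 10.42, 10.43 and 10.38 in treated arrays and at 6.79, 6.74 and 6.33 in vehicle arrays, a change of 3.79 ± 0.10. The groups were separated by more than 3 log2 units in both. F13A1, the A subunit of coagulation factor XIII, changed by 4.56 ± 0.19, ROBO1, a receptor for SLIT guidance proteins, by 4.46 ± 0.22, and RAB27B, a GTPase of vesicle release, by 4.18 ± 0.18. CSGALNACT1, an enzyme of chondroitin sulfate synthesis, changed by 4.03 ± 0.12. Against the vehicle arrays of days 2 and 6 these 6 genes stood at 3.82 to 4.68, and none of them was marked.

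**Figure D2:**
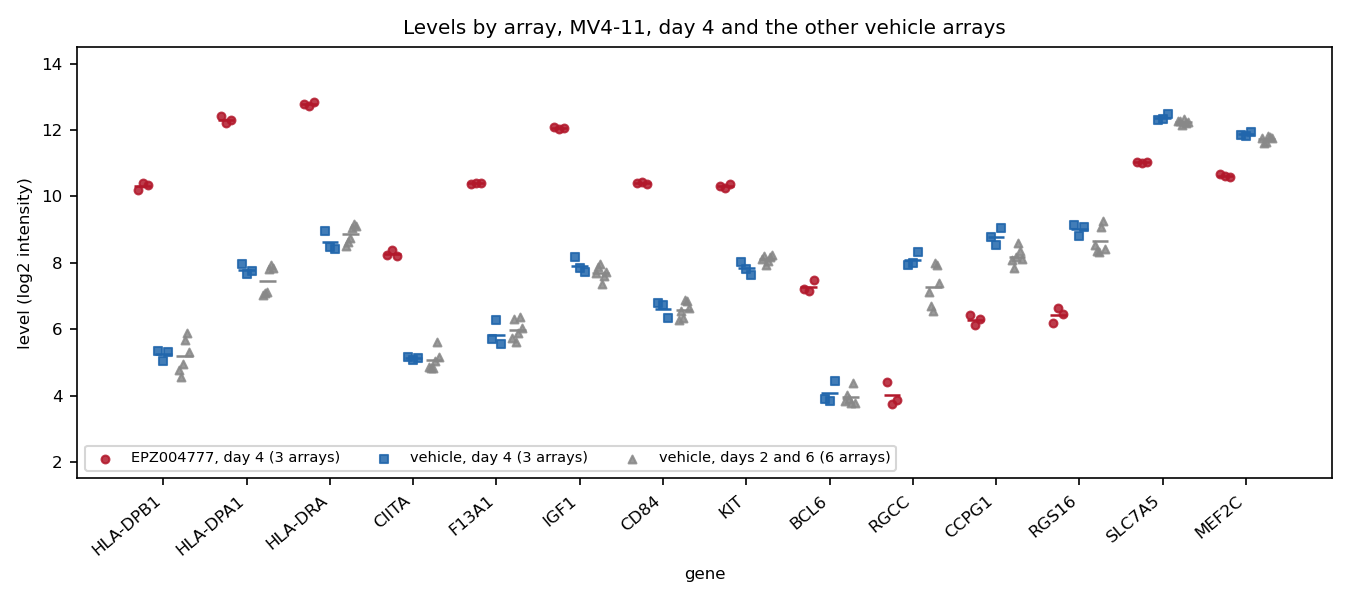
Levels (log2 intensity) of 14 genes with no mark in the 3 EPZ004777 arrays of day 4 (circles), the 3 vehicle arrays of day 4 (squares) and the 6 vehicle arrays of days 2 and 6 (triangles), with short lines at the means. In the first 9 genes the treated arrays lie above both sets of vehicle arrays, and in the last 5, such as RGCC at 3.75 to 4.40 in treated arrays, they lie below both.

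The receptors KIT and CSF1R rose, while FLT3, also a receptor of this line, fell by 0.77. KIT, the receptor for stem cell factor, stood at 10.32, 10.26 and 10.38 in treated arrays, against 8.02, 7.82 and 7.64 in vehicle arrays, a change of 2.49 ± 0.10 (limma, adjusted p = 1.89e-13). CSF1R, the receptor for macrophage colony-stimulating factor, stood at 10.57, 10.59 and 10.59 in treated arrays and at 9.05, 9.47 and 9.43 in vehicle arrays. Neither overlapped between groups. Of 19 tested monocyte and macrophage genes 12 rose and 1 fell, with a median of 0.51, and against the vehicle arrays of days 2 and 6 the count was 13 and 1. The list had 29 genes on the array. CD163, MRC1, MERTK, FCGR1A, C1QA, C1QB and C1QC were among those too low to be tested. CD14, ITGAM, SPI1, IRF8, KLF4 and VCAN were tested and not called. MPEG1, a pore-forming protein of macrophages, rose by 1.57 ± 0.08, CCR2, a chemokine receptor of monocytes, by 0.71 ± 0.09, and TLR2, a receptor for bacterial lipoproteins, by 0.51 ± 0.07. ITGAX, the alpha chain of an integrin of dendritic cells, was the member that fell, by 1.65 on the log2 scale, with no overlap of the groups. It was marked high, and its difference from the vehicle arrays of days 2 and 6 was 0.02, which was not called. CD86, a costimulator of T cells, rose by 2.34 ± 0.27 even though it was marked high, and stood 3.79 above the other vehicle arrays.

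Primary granule genes encode the enzymes stored early in neutrophil development. Of 14 tested members 9 rose and 1 fell, with a median of 0.42, and 2 were marked low. Against the vehicle arrays of days 2 and 6, 11 were higher and 0 lower, with a median of 0.31. CTSG, a granule protease, stood at 13.97, 14.06 and 14.09 in treated arrays, against 12.24, 12.30 and 12.12 in vehicle arrays. Its change was 1.82 ± 0.07, and it was marked low, which enlarges this rise. ELANE, the neutrophil elastase, rose by 0.93 ± 0.05, and CST3, an inhibitor of cathepsins, by 1.27 ± 0.07. SERPINA1, an inhibitor of elastase, fell by 0.56, and its difference from the other vehicle arrays, 0.10, was not called. Among 14 tested genes of the S100 family and of neutrophil maturation 7 rose and 3 fell. All 22 genes of the list were on the array. LTF, LCN2, CAMP, MMP8, FPR1, FPR2 and PADI4 were among those too low to be tested, and CEBPE and MMP9 were not called. S100A8, a calcium-binding protein of neutrophils and monocytes, stood at 9.29, 9.38 and 9.56 in treated arrays, against 6.09, 6.12 and 6.17 in vehicle arrays. It was marked low, so its change of 3.28 ± 0.11 became 2.53 ± 0.10 against the vehicle arrays of days 2 and 6. CSF3R, through which granulocytes sense their growth factor, rose by 1.25 ± 0.08 and CXCR2, a chemokine receptor of neutrophils, by 0.94 ± 0.09. ITGB2, the shared beta chain of leukocyte integrins, fell by 1.23 and was marked high.

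Interferon-stimulated genes stood high in the day 4 vehicle arrays beside the other MV4-11 arrays. Interferons act through STAT and IRF proteins, which bind an element in the promoters of genes that restrict viruses. Of 31 tested members 22 fell and 1 rose in treated cells, with a median of -1.36, but 23 of the 31 were marked high. Against the vehicle arrays of days 2 and 6 the direction turned, with 17 higher, 3 lower and a median of 0.38. The median level of the list was 7.03, 6.78 and 7.29 in the treated arrays of day 4, against 8.68, 8.02 and 8.67 in their vehicle arrays. On day 2 it was 5.57, 5.78 and 5.86 in treated arrays and 5.31, 5.93 and 5.71 in vehicle arrays, and on day 6 it was 6.95, 7.08 and 6.85 in treated arrays and 7.59, 5.95 and 5.28 in vehicle arrays. The treated arrays of day 4 thus lay below the vehicle arrays of their own day and above all treated and vehicle arrays of day 2. Replicate 1 of the day 6 vehicle arrays stood apart from its group toward the day 4 level, and without it 27 of the 31 genes were marked high and the median against the other vehicle arrays was 0.43.

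The promoters of IFIT3, ISG15, IFI44L and IFITM1 are shown because they carry the interferon response core GAAANNGAA on either strand, in capitals, although IFITM1 did not fall. They are 200-base windows of RefSeq sequence (GRCh38.p14) on the plus strand, 180 bases before the start site to 20 from it onward, at chr10:89327817-89328016, chr1:1013317-1013516, chr1:78620268-78620467 and chr11:313860-314059, in this order. In ISG15 3 matches overlap in 1 run of capitals.
IFIT3: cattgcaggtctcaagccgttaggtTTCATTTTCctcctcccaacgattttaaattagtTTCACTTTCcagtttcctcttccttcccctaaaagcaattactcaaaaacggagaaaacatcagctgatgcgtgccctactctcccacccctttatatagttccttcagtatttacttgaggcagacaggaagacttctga
ISG15: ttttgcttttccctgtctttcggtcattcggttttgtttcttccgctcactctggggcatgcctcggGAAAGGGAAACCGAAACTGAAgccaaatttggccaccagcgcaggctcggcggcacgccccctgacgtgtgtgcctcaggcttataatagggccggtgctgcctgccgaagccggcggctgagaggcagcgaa
IFI44L: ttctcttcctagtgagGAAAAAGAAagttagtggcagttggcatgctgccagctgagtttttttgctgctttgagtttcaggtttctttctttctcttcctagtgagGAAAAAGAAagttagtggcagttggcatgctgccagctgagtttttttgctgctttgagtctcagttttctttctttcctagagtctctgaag
IFITM1: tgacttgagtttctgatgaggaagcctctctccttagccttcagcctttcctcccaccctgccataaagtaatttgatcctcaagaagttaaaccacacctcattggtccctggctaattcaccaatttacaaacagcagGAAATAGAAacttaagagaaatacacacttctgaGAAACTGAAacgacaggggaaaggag
The core was in 19 of 26 list promoters (73.1%), against 8.29% of all promoters in the table and 6.55% of those of genes tested. The 19 genes with it had a median day 4 change of -1.91 and the 7 without it one of -1.27, and of these 12 and 6 fell.

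IFIT3, an antiviral protein that binds foreign RNA with its partners, stood at 2.40, 2.57 and 2.57 in treated arrays, against 9.80, 9.16 and 9.79 in vehicle arrays. The vehicle arrays of day 2 had 2.73, 6.44 and 5.71 and those of day 6 had 9.52, 5.95 and 2.57. The day 4 groups were far apart, but 1 vehicle array of day 6 reached the day 4 vehicle level, so IFIT3 carries no mark. ISG15, a ubiquitin-like protein, stood at 9.32, 9.36 and 9.33 in treated arrays and at 12.04, 11.39 and 11.69 in vehicle arrays, a change of -2.37 ± 0.20 (limma, adjusted p = 1.1e-08), and of -0.55 against the other vehicle arrays, still a call. MX1, a GTPase that traps viral particles, stood at 4.54 in each treated array, against 9.31, 8.57 and 8.67 in vehicle arrays. Its change was -4.31 ± 0.65, and its difference from the other vehicle arrays was 0.20 (limma, adjusted p = 0.796). As its treated values were equal, the size of both differences may be set by the background adjustment, which was not tested.

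Several members were higher than the vehicle arrays of the other days in both day 4 groups. IFI6, an interferon-induced mitochondrial protein, stood at 8.47, 8.48 and 8.44 in treated arrays and at 10.79, 10.21 and 10.13 in vehicle arrays, while the day 2 vehicle arrays ranged from 6.28 to 6.87. It was 1.91 lower than day 4 vehicle and 1.34 higher than the vehicle arrays of days 2 and 6. RSAD2, the antiviral enzyme viperin, was 1.95 higher than those arrays, and SAMD9L, an antiviral restriction factor, 1.64 higher. CXCL10, a chemokine for activated T cells, IFI44 and IFI44L were at the lowest value in all treated arrays of day 4, and none of these 3 differed by a call from the vehicle arrays of days 2 and 6. IFITM1, which blocks viral entry, stood at 12.39, 12.41 and 12.38 in treated arrays and at 12.25, 11.95 and 11.97 in vehicle arrays, a difference of 0.34 that was not called (limma, adjusted p = 0.0765). TRIM22, an antiviral ubiquitin ligase, was the member that rose, by 0.32 ± 0.08. Of 11 regulators of the interferon response 3 rose and 6 fell, with 5 marked high. IRF7 and IRF9, transcription factors that drive these genes, changed by -0.84 ± 0.16 and -1.01 ± 0.14 against day 4 vehicle and stood 0.47 and 0.44 above the vehicle arrays of days 2 and 6. The median of the regulators was -0.22 in the first comparison and 0.44 in the second.

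**Figure D3:**
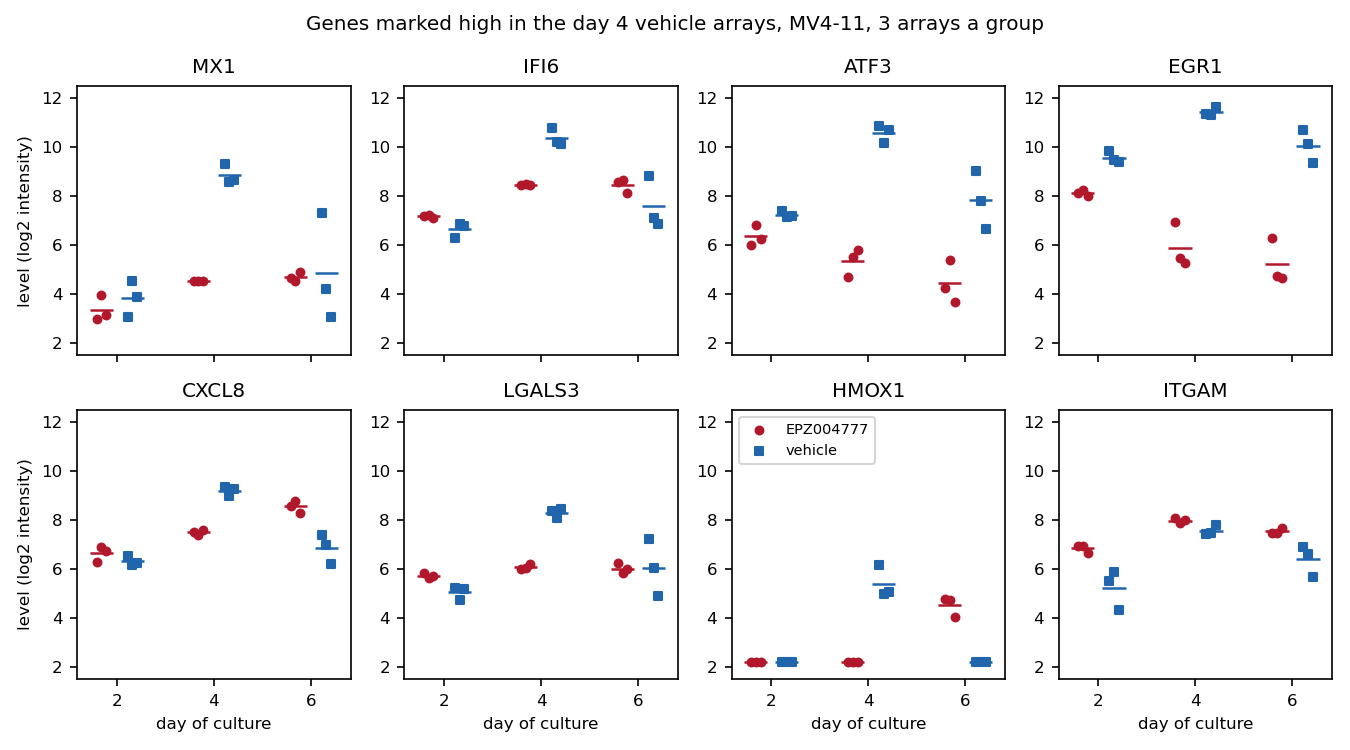
Levels (log2 intensity) of 8 genes marked high in the day 4 vehicle arrays, by day of culture, with EPZ004777 arrays (circles) left of vehicle arrays (squares) and lines at the means of 3 arrays. Each gene has its highest vehicle arrays on day 4, and HMOX1 is at the lowest value in the treated arrays of day 4 but at 4.05 to 4.77 in those of day 6.

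The list of cytokine genes and genes of the pathway of NF-kappaB, a transcription factor of inflammation, fell in 16 of 21 tested members and rose in 1. Its median was -0.98, and 11 were marked high. Against the vehicle arrays of days 2 and 6 the count was 6 higher and 8 lower, with a median of -0.25. TNF, an inflammatory cytokine, stood at 5.69, 5.52 and 5.49 in treated arrays, against 9.27, 9.11 and 9.33 in vehicle arrays. It was marked high by only 0.60, and its change was -3.67 ± 0.21 against day 4 vehicle and -3.07 against the other vehicle arrays. TNFAIP3, which shuts the pathway off, stood at 8.58, 8.47 and 8.47 in treated arrays and at 10.54, 10.22 and 10.55 in vehicle arrays, a change of -1.93 ± 0.12. CXCL8, a chemokine for neutrophils, stood at 7.52, 7.40 and 7.58 in treated arrays and at 9.33, 8.97 and 9.26 in vehicle arrays. The groups did not overlap in these 3 genes, yet CXCL8 was 0.92 above the vehicle arrays of days 2 and 6, so its direction turned. CCL5, an unmarked chemokine, changed by -3.09 ± 0.23 and by -1.85 against the other vehicle arrays. IL18, a cytokine of macrophages, was the member that rose, by 1.65 ± 0.19. An NF-kappaB core, GGAATTTCC or GGACTTTCC on either strand, was in 7 of 14 list promoters (50%), against 0.842% of all promoters. The 7 genes with it had a median change of -0.53 and the 7 without it one of -1.36.

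Immediate early genes, which answer growth factor signals within minutes, and feedback genes of the ERK kinase pathway fell in 21 of 30 tested members and rose in 1. The median was -0.78 against day 4 vehicle and -0.47 against the vehicle arrays of days 2 and 6, where 3 were higher and 20 lower, and 12 were marked high. EGR1, a zinc finger transcription factor, stood at 6.93, 5.48 and 5.25 in treated arrays, against 11.37, 11.33 and 11.64 in vehicle arrays. Its change was -5.56 ± 0.46, and -3.93 against the other vehicle arrays. EGR3, a relative of EGR1, stood at 2.71, 2.92 and 2.67 in treated arrays and at 8.92, 8.72 and 9.23 in vehicle arrays. In both the treated arrays lay below every vehicle array of the 3 days. IER3, a stress-induced survival factor, changed by -3.65 ± 0.18, ETV5, a transcription factor induced by ERK, by -1.92 ± 0.15, and SPRED2, an inhibitor of the pathway, by -0.73 ± 0.10, the last without a mark. JUN, a subunit of AP-1, changed by -1.35 ± 0.23 but stood 0.79 above the vehicle arrays of days 2 and 6. FOSL2, another AP-1 subunit, was the member that rose, by 0.33 ± 0.08. MAFF, a small bZIP factor, and IL4I1, an amino acid oxidase of myeloid cells, are outside these lists and were among the largest marked falls, at -4.28 ± 0.19 and -5.40 ± 0.33.

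Output genes of STAT5, which is activated by the FLT3 kinase in this kind of leukemia, fell in 7 of 12 tested cases and rose in 2. Of the 12, 3 were marked high, and against the vehicle arrays of days 2 and 6, 6 were lower and 3 higher. PIM1, a survival kinase marked high, changed by -1.09 ± 0.11 and CCND3, an unmarked D cyclin, by -0.69 ± 0.07. BCL6, a transcriptional repressor, stood at 7.21, 7.15 and 7.48 in treated arrays, against 3.91, 3.84 and 4.45 in vehicle arrays, a change of 3.21 ± 0.19 without a mark. Its sign was opposite to that of most of the list, which does not separate genes that STAT5 raises from genes that it lowers.

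Genes of the amino acid stress response, driven by ATF4, fell in 18 of 20 tested cases and rose in 0, with a median of -1.09. Against the vehicle arrays of days 2 and 6 the count was the same, 18 lower and 0 higher, with a median of -0.77, and 6 were marked high. TRIB3, a pseudokinase that restrains this response, stood at 7.06, 6.81 and 6.89 in treated arrays, against 11.56, 11.08 and 11.59 in vehicle arrays. CBS, an enzyme of cysteine synthesis, stood at 5.12, 4.80 and 5.05 in treated arrays and at 6.95, 6.83 and 7.27 in vehicle arrays. The groups of both were apart, TRIB3 with a mark at -4.49 ± 0.28 and CBS without one at -2.03 ± 0.14. PSAT1, an enzyme of serine synthesis, changed by -1.21 ± 0.11 and by -1.21 again against the other vehicle arrays. DDIT4, an inhibitor of mTORC1, changed by -3.09 ± 0.28 and was marked high. VLDLR, a lipoprotein receptor, and STC2, a secreted glycoprotein, were not called.

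Transporters of amino acids fell in 8 of 11 cases and rose in 0, and aminoacyl-tRNA synthetases, which charge tRNAs, in 10 of 17 and 0. SLC7A5, a carrier of large neutral amino acids, stood at 11.05, 11.00 and 11.04 in treated arrays, against 12.31, 12.32 and 12.47 in vehicle arrays, a change of -1.34 ± 0.08 without a mark. SLC7A11, the cystine carrier, changed by -3.15 ± 0.31 with one. WARS1, which charges tryptophan, changed by -1.21 ± 0.11 and was the synthetase marked high, AARS1, for alanine, by -1.04 ± 0.11, and GARS1, for glycine, by -0.90 ± 0.09. The core TGATGNAA, bound by ATF4 with C/EBP partners, was in 5 of 14 synthetase promoters (35.7%). It was in 3.67% of all promoters and in 1.73% of those of genes tested. The 5 synthetases with it all fell, with a median of -0.47, and of the 9 without it 3 fell, with a median of -0.10. In the amino acid stress list only 2 of 17 promoters held it (11.8%), and 13 of the 15 genes without it fell as well. Of the transporters 3 of 10 held it (30%), of which 2 fell, and 5 of the 7 without it fell. Genes of the unfolded protein response, which adjusts protein folding in the endoplasmic reticulum, fell in 16 of 18 cases and rose in 1. Of these 18, 7 were marked high, and the median of -0.68 became -0.38 against the vehicle arrays of days 2 and 6. MANF, a secreted stress protein, stood at 10.49, 10.54 and 10.49 in treated arrays and at 11.67, 11.40 and 11.49 in vehicle arrays, a change of -1.02 ± 0.05. XBP1, a transcription factor of this response, changed by -1.27 ± 0.12, and ATF6, another, was the member that rose, by 0.63 ± 0.08.

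Sterol synthesis and uptake genes, controlled by the membrane-bound factor SREBF2, fell in 17 of 19 tested cases and rose in 0. Their median was -1.39, and -1.06 against the vehicle arrays of days 2 and 6, where 16 were lower, and 9 were marked high and 1 low. DHCR7, which makes cholesterol in the last step, stood at 7.32, 6.61 and 6.96 in treated arrays, against 10.21, 9.99 and 10.27 in vehicle arrays. FDPS, which makes farnesyl diphosphate, stood at 11.71, 11.74 and 11.75 in treated arrays and at 13.14, 13.06 and 13.19 in vehicle arrays. The groups lay apart in both, with changes of -3.19 ± 0.14 and -1.39 ± 0.07, and both genes were marked high. HMGCS1, at the entry of the pathway and marked high, changed by -2.17 ± 0.15, and STARD4, a sterol carrier without a mark, by -2.10 ± 0.18. SCAP, the escort of SREBF2, was not called, at 0.09. The sterol response core TCACNCCAC was in 1 of 18 list promoters (5.56%) and in 1.15% of all promoters. Fatty acid synthesis genes fell in 8 of 10 cases and rose in 0, with a median of -1.01, and 5 were marked high. Against the vehicle arrays of days 2 and 6 their median was -0.81. FASN, the fatty acid synthase, and SCD, a desaturase, changed by -1.86 ± 0.13 and -1.49 ± 0.08, both marked high. ACACA, which makes malonyl-CoA, changed by -1.08 ± 0.06 without a mark. Targets of the oxysterol receptor LXR and lipid storage genes moved little as a list, with 1 of 11 higher and 2 lower. CD36, a fatty acid receptor, rose by 2.02 ± 0.15, and PLIN2, a lipid droplet coat protein, and APOC1, an apolipoprotein, each changed by -1.21.

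**Figure D4:**
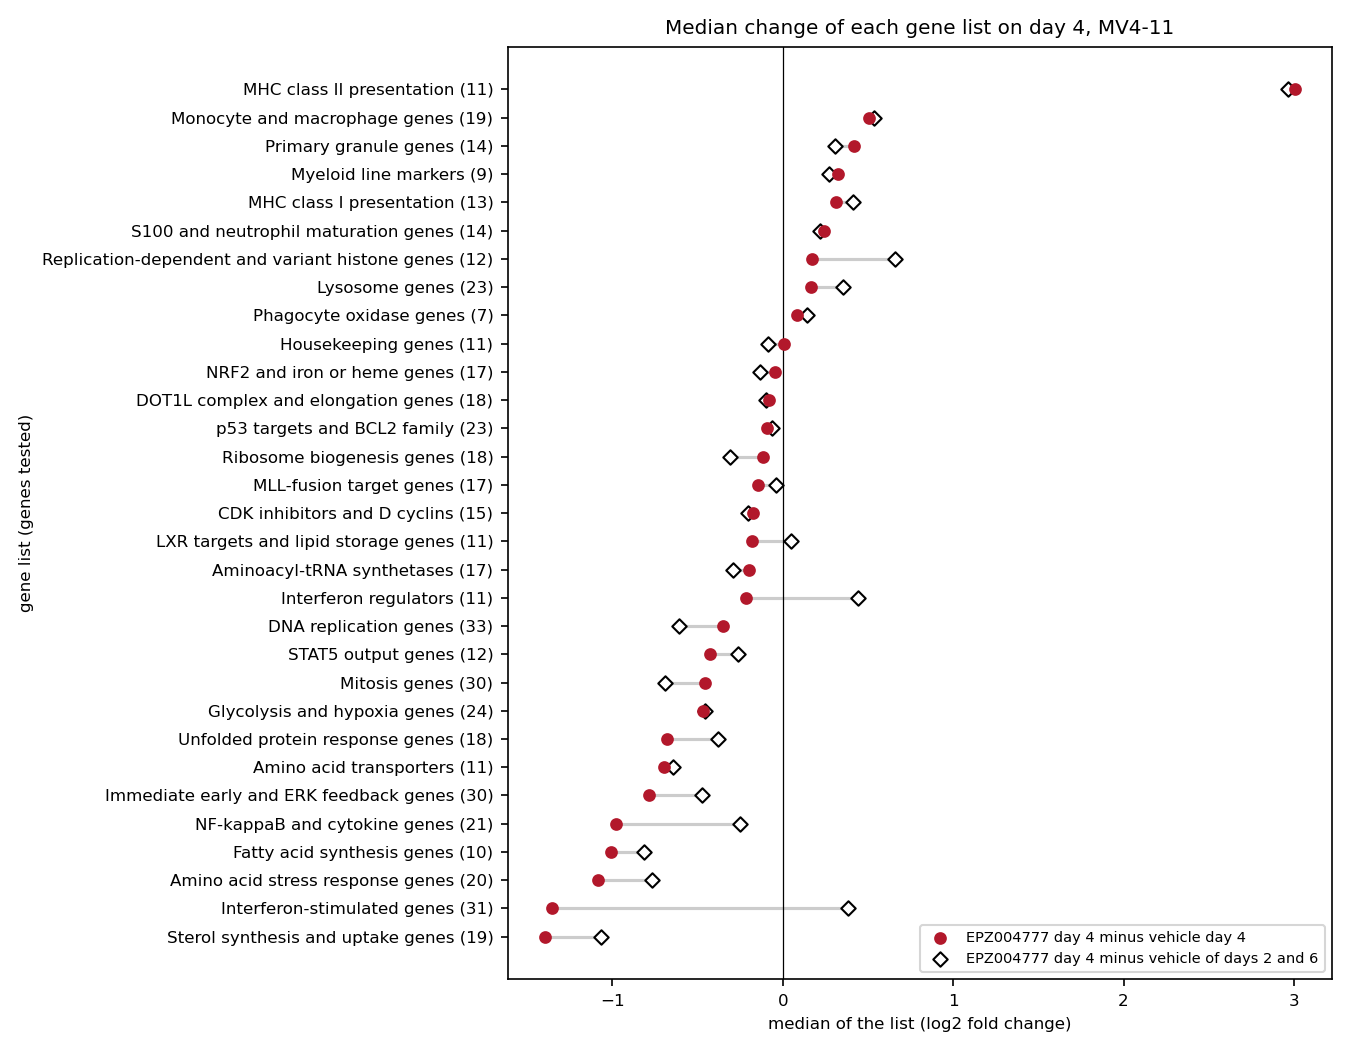
Median log2 change of each gene list with at least 5 tested genes (number in brackets) for EPZ004777 arrays of day 4 against vehicle arrays of day 4 (filled) and against vehicle arrays of days 2 and 6 (open diamonds). The 2 comparisons share the treated arrays. The interferon-stimulated list moves across 0, from -1.36 with day 4 vehicle to 0.38 with the other vehicle arrays, while MHC class II stays near 3.

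Cell cycle genes showed the opposite kind of mark. Of 33 genes of DNA replication 25 fell and 0 rose in treated cells, and of 30 genes of mitosis 27 fell and 0 rose. The day 4 vehicle arrays were themselves low for them, with 18 of 33 and 18 of 30 marked low and 0 marked high. The medians of -0.35 and -0.46 against day 4 vehicle became -0.61 and -0.69 against the vehicle arrays of days 2 and 6, where 32 and 30 were lower. CDC6, which loads the replicative helicase, stood at 9.38, 9.37 and 9.46 in treated arrays, against 10.50, 10.54 and 10.48 in vehicle arrays, a change of -1.10 ± 0.08 without a mark. PLK1, a mitotic kinase, ranged between 7.92 and 8.13 in treated arrays and between 8.72 and 8.79 in vehicle arrays. PLK1 was marked low, and its change of -0.74 ± 0.09 became -1.19 against the other vehicle arrays. RRM2, a subunit of ribonucleotide reductase, changed by -0.65 ± 0.05, and MKI67, a proliferation antigen, by -0.76 ± 0.07. TOP2A, a topoisomerase, and CENPA, a centromeric histone, were marked low and not called, at -0.10 and 0.00. The CHR core TTTGAA, a short element of promoters active late in the cell cycle, was in 19 of 25 mitosis promoters (76%). It was in 15.4% of all promoters and in 10% of those of genes tested. Of the 19 genes with it 16 fell, with a median of -0.44, and of the 6 without it 6 fell, with a median of -0.51. The E2F cores TTCGCGC and TTGGCGC were in 13 of 30 replication promoters (43.3%), in 5.18% of all promoters and in 8.69% of those of genes tested. The 13 genes with them had a median change of -0.39 and the 17 without them one of -0.33. Both elements were searched on both strands.

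Regulators of the cycle moved in both directions. CDKN1C, an inhibitor of cyclin-dependent kinases, stood at 7.73, 7.77 and 7.47 in treated arrays, against 4.74, 4.46 and 5.34 in vehicle arrays. It rose by 2.81 ± 0.24 although it was marked high, and stood 3.71 above the vehicle arrays of days 2 and 6. CDKN1A, an inhibitor induced by p53, stood at 9.36, 9.45 and 9.54 in treated arrays and at 11.18, 11.01 and 11.23 in vehicle arrays, a change of -1.69 ± 0.10 with a mark. These 2 inhibitors thus moved apart. Of the 15 genes in their list 2 rose and 8 fell. Genes of ribosome biogenesis were called in 2 cases higher and 5 lower of 18, with 8 marked low, and 13 were lower than the vehicle arrays of days 2 and 6.

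Genes of glycolysis and the hypoxia response fell in 18 of 24 tested cases and rose in 1, with a median of -0.47 against day 4 vehicle and -0.46 against the other vehicle arrays. SLC2A3, a glucose carrier, stood at 7.17, 6.99 and 6.88 in treated arrays, against 9.81, 9.76 and 10.04 in vehicle arrays. BNIP3, a mitophagy receptor, stood at 9.26, 8.71 and 8.89 in treated arrays and at 11.64, 11.52 and 11.75 in vehicle arrays. Both were separate between groups, SLC2A3 at -2.86 ± 0.23 without a mark and BNIP3 at -2.68 ± 0.17 with one. LDHA, lactate dehydrogenase, changed by -0.49 ± 0.06 and PGK1, a kinase of glycolysis, by -0.42 ± 0.07, and HK1, a hexokinase, rose by 0.23 ± 0.07. Outside this list, RGCC, a regulator of the cell cycle without a mark, stood at 4.40, 3.75 and 3.87 in treated arrays against 7.93, 7.99 and 8.33 in vehicle arrays, a change of -4.07 ± 0.28 (limma, adjusted p = 5.61e-10). CCPG1, a receptor for degradation of the endoplasmic reticulum, changed by -2.50 ± 0.15, RGS16, which limits G protein signals, by -2.58 ± 0.18, CYTIP, a partner of cytohesins in leukocytes, by -2.64 ± 0.20, and PFKFB4, which sets the pace of glycolysis, by -2.33 ± 0.20. FCMR, a receptor for IgM, changed by -2.71 ± 0.27. These genes were lower than the vehicle arrays of days 2 and 6 as well, by 1.34 to 3.27 on the log2 scale.

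Rises among genes marked low were smaller with the other vehicle arrays, which the mark fixes by construction, but those named kept their call. SOBP, a nuclear zinc finger protein, stood at 7.40, 7.48 and 7.51 in treated arrays, against 4.34, 3.93 and 3.99 in day 4 vehicle arrays. TCF4, a transcription factor of lymphoid and dendritic cells, stood at 11.05, 11.11 and 11.00 in treated arrays and at 8.55, 8.53 and 8.36 in vehicle arrays. The groups of both were apart, with changes of 3.37 ± 0.24 and 2.57 ± 0.10, and of 2.43 and 2.22 against the vehicle arrays of days 2 and 6. MMP2, a matrix protease, changed by 2.14 ± 0.09 and GCNT1, a glycosyltransferase, by 2.16 ± 0.09.

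In 338 genes marked high the treated and vehicle arrays of day 4 were not called apart, and in 259 of these the treated arrays were called higher than the vehicle arrays of days 2 and 6. Much of this is fixed by construction. Treated arrays that stay near the day 4 vehicle arrays lie near values that the mark already sets above the other vehicle arrays. ITGAM, the alpha chain of a complement receptor on myeloid cells, stood at 8.07, 7.87 and 7.98 in treated arrays, against 7.42, 7.45 and 7.80 in day 4 vehicle arrays. The 6 other vehicle arrays had 5.51, 5.87 and 4.32 on day 2 and 6.88, 6.60 and 5.68 on day 6. Both day 4 groups thus stood above them, and the difference between the day 4 groups, 0.42 ± 0.29, was not called (limma, adjusted p = 0.254). AXL, a receptor kinase that clears dying cells, stood at 7.11, 7.01 and 7.55 in treated arrays and at 8.38, 7.71 and 7.95 in vehicle arrays, and IFI16, a DNA sensor, at 10.04, 9.79 and 9.59 and at 9.89, 9.49 and 9.88. AXL was 1.55 and IFI16 was 1.68 higher in treated arrays of day 4 than in the vehicle arrays of days 2 and 6. A day 4 comparison alone shows neither of these differences.

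Of 17 tested targets of the MLL fusion 7 fell, 0 rose and 10 were not called, with a median of -0.15, and 2 were marked high. The list held 25 genes. HOXA5, HOXA7, HOXA9, HOXA10 and RUNX1 had no probe set with 1 gene symbol and were not measured here, so these counts do not cover them. Against the vehicle arrays of days 2 and 6, 5 were lower and 0 higher, with a median of -0.04. MEF2C, a transcription factor of this leukemia, stood at 10.66, 10.62 and 10.59 in treated arrays, against 11.86, 11.83 and 11.92 in vehicle arrays. FLT3, a receptor kinase, stood at 11.56, 11.57 and 11.57 in treated arrays and at 12.33, 12.35 and 12.32 in vehicle arrays. Neither overlapped between groups, and neither was marked. LMO2, a bridge protein of stem cell factors, changed by -0.40 ± 0.06, and CDK6, a kinase of the cell cycle, by -0.16 ± 0.06, a call that was lost when any 1 of the 6 arrays was left out. MEIS1, a partner of HOX proteins, stood at 11.01, 11.13 and 10.99 in treated arrays and at 11.19, 11.16 and 11.22 in vehicle arrays, arrays that did not overlap, but the difference was not called (limma, adjusted p = 0.157). Among 18 genes of the DOT1L complex and of transcript elongation 3 rose and 6 fell. DOT1L itself stood at 8.23, 8.31 and 8.29 in treated arrays, against 9.36, 9.21 and 9.24 in vehicle arrays, a change of -0.99 ± 0.13 (limma, adjusted p = 4.64e-06) without a mark. AFF1, the fusion partner of MLL in this line, changed by -0.34 ± 0.05 and was marked high. MLLT6, a reader of histone marks, changed by 0.45 ± 0.09.

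Whether the treatment effect of day 4 differed from that of the other days was tested as the day 4 difference minus the mean of the day 2 and day 6 differences. At an adjusted p under 0.05 and a difference of at least 1 on the log2 scale, 179 genes were more negative on day 4 (1.63%) and 16 were more positive (0.146%), together 195 genes (1.78%). Without replicate 3 of the day 6 treated arrays, which stood apart in its 3′ to 5′ difference, these counts were 178 and 12. The interferon-stimulated list held 22 of the more negative genes, the NF-kappaB list 8 and the immediate early list 8. HMOX1, which breaks down heme, was at the lowest value in all treated arrays of day 4 and stood at 6.18, 4.97 and 5.05 in vehicle arrays. On day 2 it was at the lowest value in both groups, and on day 6 it stood at 4.77, 4.74 and 4.05 in treated arrays while the vehicle arrays were at the lowest value. The sign of its treatment difference therefore changed with the day, at 0.00, -3.21 and 2.33 on days 2, 4 and 6. For CXCL8 these differences were 0.33, -1.68 and 1.70. LGALS3, a galectin of macrophages, differed by 0.68, -2.20 and -0.05. On the positive side, HLA-DRA, an MHC class II alpha chain, differed by 2.03, 4.17 and 4.12 on days 2, 4 and 6. Its day 4 effect thus stood above that of day 2 and near that of day 6.

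Further lists moved in both directions or little. Lysosome genes rose in 9 of 23 cases and fell in 3, and 8 were marked high, so that 12 were higher than the vehicle arrays of days 2 and 6 and 1 lower. PSAP, a precursor of lipid-binding proteins of the lysosome, stood at 12.47, 12.44 and 12.46 in treated arrays and at 11.71, 11.43 and 11.44 in vehicle arrays. Of 7 subunits and partners of the phagocyte oxidase 2 rose and 1 fell, the fall being NCF1 at -3.06 ± 0.18 with a mark, and NCF1 has near-identical copies that can share its probes. Histone genes rose in 5 of 12 cases and fell in 3. H2BC5 and H2AC6, genes of replication-dependent histones with near copies, changed by 1.96 ± 0.14 and 1.87 ± 0.36, and both were marked high and stood 2.38 and 4.29 above the other vehicle arrays. Among genes of iron and heme handling and NRF2 targets 4 of 17 rose and 5 fell. SLC40A1, the iron exporter, stood at 5.75, 5.24 and 5.48 in treated arrays and at the bottom of the range, 2.19, in each vehicle array, and ALAS1, which starts heme synthesis, changed by -1.08 ± 0.08. Of 23 p53 targets and BCL2 family genes 6 rose and 8 fell. BIK, a killer protein of the BCL2 family, rose by 1.21 ± 0.09, and TNFRSF10B, a death receptor, fell by 0.78.

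Markers of other blood cells moved with some of these groups. Of 14 megakaryocyte and platelet markers listed 3 were tested and all 3 rose, namely F13A1, which monocytes also make, NFE2, a factor of platelet formation at 2.02 ± 0.10, and ITGA2B, an integrin chain of platelets that was marked high, at 0.72 ± 0.17. NKG7, a granule protein of killer cells, rose by 0.55 ± 0.08, while CD3D was at the lowest value and NCAM1, a killer cell adhesion molecule, did not exceed 3.58 in any day 4 array. IGLL1 rose by 1.87 ± 0.15 with a low mark, and PAX5, a factor of B cells, changed by -0.79 ± 0.26. In these bulk samples fewer cells of a type and less RNA per cell cannot be told apart, and the part of cell types, of RNA quality and of the culture on day 4 in any of these differences was not tested. Of 11 housekeeping genes 1 rose and 3 fell, with a median of 0.01.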

How the data were processed

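RNA of 24 samples, 3 biological replicates in each of 8 groups per the labels, was hybridised to 1-colour arrays of 54675 probe sets. The deposited values are linear intensities that the authors had background-adjusted and normalized with GCRMA, per the submitters' processing notes, and no version of it is given in the sources used here. They were turned into log2 values with no pseudocount, and no new normalization was applied. Of the probe sets 62 controls were left out, 41097 had 1 gene symbol, 1801 several and 11777 none, and 41043 of the first matched RefSeq by Entrez ID. Each of 19775 genes was read by its probe set with the highest mean, and the 10963 genes at log2 4 or above in at least 3 arrays were tested with limma 3.58.1 in R 4.3.3, in 1 fit of all 24 arrays with no covariates. Python 3.11.15 was used for counts and figures. Benjamini-Hochberg adjustment ran across every gene tested, and the fit was tested on simulated data. No pair of arrays was identical. With 3 arrays a group an exact permutation test of 1 gene cannot go below 0.1, so none is given, and the number of arrays limits the precision.

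The members and gene lists were chosen with earlier results of these data known, so no list is independent evidence of its direction. Genes are named by a rule: the largest unmarked changes of measurable genes, the largest falls of genes marked high and rises of genes marked low, the largest changes to or from low levels, the members of each list with the lowest adjusted p, at most 4, a panel of genes of this leukemia, the largest differences between days, and marked genes that were not called. Members named beyond this rule, such as the 1 member of a list that moved against it, were chosen after their values were seen. Of the called named genes 79 had another probe set at log2 4 or above, and in 5, IDI1, KMT2A, NOLC1, PSIP1 and RRP12, one of these differed in the opposite direction. The alternatives covered the filter, the arrays in the fit, the variance prior, the probe set, the normalization, a pseudocount of 16, the replicate block, the 3′ to 5′ difference as a covariate, a minimum change, the vehicle arrays used, and leaving out each replicate.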

Additional observations from a re-analysis of the deposited data

Results flagged for a closer look

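In 52 of the 192 named genes the treatment effect of day 4, EPZ004777 minus vehicle, differed from the mean effect of days 2 and 6 by at least 1 on the log2 scale in limma's test of that difference. In 45 of them the day 4 effect was more negative and in 7 it was more positive, and 32 of the 45 were marked high in the day 4 vehicle arrays. Some of the named genes were chosen by this difference or by the mark, so these counts are in part fixed by the choice. Over all 10963 genes tested, 195 differed in this way (1.78%), and 9.92% were marked high. The day 4 vehicle arrays enter both the mark and this difference. All values below are log2 differences of effects, and their causes were not tested.

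Among interferon-stimulated genes and their regulators the difference was -5.72 for CXCL10, -4.90 for IFIT1, -4.01 for MX1 and -3.95 for IFI44L. It was -3.37 for ISG20, an exonuclease, -2.60 for IFI6, -1.93 for ISG15, -1.91 for USP18, which removes ISG15, and -1.08 for DDX60L, a helicase. The regulators IRF7 and IRF9 had -1.05 and -1.04. Among inflammatory genes it was -2.70 for CXCL8, -1.41 for CCL5, -1.15 for TNF and -1.02 for TNFAIP3. Among immediate early and ERK-induced genes it was -2.43 for EGR1, -2.18 for EGR3, -2.28 for IER3, -1.27 for ETV5 and -1.30 for KLF6, a zinc finger factor, and it was -2.15 for MAFF.

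Among stress and metabolic genes the difference was -3.09 for ATF3, a stress-induced factor, -2.32 for TRIB3, -1.50 for DDIT4, -2.41 for SLC7A11 and -2.83 for NIBAN1, a stress-responsive protein. It was -4.38 for HMOX1, -1.13 for DHCR7, -1.10 for APOC1, -1.50 for BNIP3, -1.30 for SLC2A3, -1.19 for PFKFB4, -1.28 for ANKRD37 and -1.01 for CCPG1. Among genes of myeloid and lymphoid cells it was -2.52 for LGALS3, -2.21 for AXL, -2.05 for IL4I1, -1.80 for NCF1, -1.59 for FCMR, -1.29 for CYTIP and -1.15 for PAX5. The other more negative genes were RGCC at -1.84, RGS16 at -1.19, the noncoding RNA SNHG33 at -1.40 and PIERCE2 at -1.37.

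The 7 genes with a more positive day 4 effect were HLA-DRA at 1.09, HLA-DPB1 at 1.16, SLC40A1 at 1.13, IGLL1 at 1.06, SOBP at 1.28, VAT1L at 1.34 and TSPOAP1, a scaffold protein, at 1.81. SOBP, VAT1L and IGLL1 were marked low, and the other 4 carried no mark. As the difference is taken from the mean of days 2 and 6, an effect that is small on day 2 alone can also be flagged. The median effect of the MHC class II list was 1.43, 3.00 and 3.30 on days 2, 4 and 6, so its rise was not particular to day 4.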

How the results depend on the processing

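Requiring at least a 2-fold change left 463 genes higher and 305 lower in treated cells of day 4, 139 marked high and 2 marked low, and, against the vehicle arrays of days 2 and 6, 567 higher and 187 lower. With no minimum difference 310 genes were more positive and 677 more negative on day 4 than on the other days. The more positive count was 27 after a further quantile normalization and 6 on the log2(value + 16) scale, and the more negative count was 111 with the mean of all probe sets. Leaving out 1 replicate at a time gave 2386 to 2577 genes higher and 2010 to 2126 lower on day 4, 844 to 1233 marked high and 842 to 1391 marked low, the lowest without replicate 3 of the day 4 vehicle arrays. It gave 2839 to 3124 higher and 2680 to 2980 lower against the other vehicle arrays, and 12 to 22 more positive and 148 to 212 more negative between days. With the vehicle arrays of days 2 and 6 in place of day 4 the list medians of interferon regulators and interferon-stimulated genes turned to 0.44 and 0.38. The cause of these shifts was not tested. Of the named genes 0 reversed under the alternatives, and 9, among them KMT2A, PAX5 and CDK6, lost their call under at least 1.

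The replicate numbers gave no sign of pairing between the day 4 groups. Same-numbered treated and vehicle arrays deviated from their group means with correlations of -0.16, -0.06 and -0.10 over genes. Arrays of different number ran from -0.04 to 0.12. These values cannot show how the cultures were set up. With the replicate block 2721 genes were higher and 2240 lower on day 4, 1068 were marked high and 1243 low, 3166 were higher and 3040 lower against the other vehicle arrays, and 15 were more positive and 177 more negative between days. Signal at the lowest array value limits the size of changes such as those of CXCL10, IFI44L and HMOX1, and the equal treated values of MX1 may limit its change too.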
